A study of Mus musculus with 80 samples.

Results

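Inguinal white adipose tissue (iWAT), the subcutaneous fat depot of the mouse groin, was compared between mice without uncoupling protein 1 and mice without both uncoupling protein 1 and fibroblast growth factor 21. The comparison took the 5 iWAT libraries labelled UCP1 KO and the 5 labelled UCP1/FGF12 double KO (dKO), 10 of the 80 RNA-sequencing libraries of the series. The name in the labels reads FGF12, while the paper describes a UCP1/FGF21 double knockout, and the gene without reads in this group was Fgf21. The 5 WT and 5 FGF21 KO libraries of the same depot served as a reference. All mice were homozygous males on the C57BL/6J background, kept at 30 °C from birth, moved to room temperature and a high-fat diet at 10 to 12 weeks of age and dissected after 3 weeks, with food withdrawn for 2 to 3 h. By their labels both groups carried the UCP1 deletion, and they shared sex, diet, age range and temperature and differed in the Fgf21 alleles. The deletions were present in the whole animal and not in fat alone, and labels did not link the tissues of a mouse. Because the 5 libraries of a group are the replicates, every p-value measures the spread between these libraries.

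Brown and beige adipocytes burn fatty acids in densely packed mitochondria, and UCP1 lets protons return across the inner mitochondrial membrane so that the energy is released as heat. FGF21 is a hormone made in liver and, under cold or mitochondrial stress, in brown fat. It acts on cells that carry an FGF receptor, mainly FGFR1 in fat, together with the co-receptor beta-klotho (Klb), and signals through the ERK kinase pathway. In white fat, browning is the appearance of genes of the brown adipocyte: enzymes of fatty acid oxidation, subunits of the respiratory chain and the transcriptional regulators PPAR alpha and PGC1 alpha. The comparison asks which genes of UCP1-deficient iWAT differ once FGF21 is lost as well.

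Several libraries held high levels of marker RNA of other tissues, in both groups. A score, the mean log2(CPM + 0.1) over a list of marker genes, was computed for each library, where CPM is the read count scaled to library size with TMM factors. The lymph node score (8 genes of B and T lymphocytes) was 7.17 in UCP1 KO 2, 7.23 in dKO 1 and 7.23 in dKO 3, and lay between -0.536 and 0.556 in the other 7 libraries. The skeletal muscle score (10 genes) was 10.2 in UCP1 KO 1, 4.57 in UCP1 KO 5, 5.07 in dKO 1 and 3.16 in dKO 2, and between 1.45 and 1.92 in the others. The epithelial score was 1.04 in dKO 3 and 1.53 in dKO 4 and between -3.01 and -1.18 in the others. Of these markers, 0 of 8, 0 of 10 and 0 of 3 tested passed edgeR's test between the genotypes (0, 2 and 1 at an unadjusted p under 0.05, and 0 called by DESeq2). The adipocyte identity score (18 genes) overlapped between the groups, 9.14 to 10.1 in UCP1 KO and 8.63 to 9.93 in dKO, and was lowest in the 3 libraries with lymph node RNA. The brown fat score stood apart without overlap, 4.66 to 6.61 in UCP1 KO against 2.59 to 3.90 in dKO. Its gene list was chosen with earlier results of these data known, so this separation is a description. Total counts ran from 33654053 to 36588343 over the UCP1 KO libraries and from 37425840 to 44726914 over the dKO libraries.

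**Figure D1:**
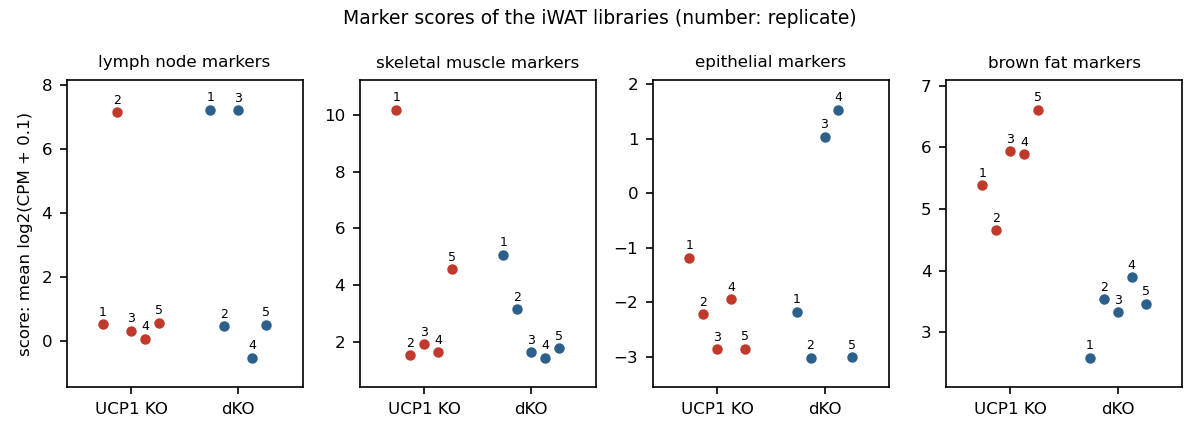
Marker scores, as mean log2(CPM + 0.1) on the vertical axis, of the 5 UCP1 KO and 5 dKO libraries of iWAT, 1 point per library with its replicate number. The lymph node score separates UCP1 KO 2, dKO 1 and dKO 3 from the other libraries, while the brown fat score of every UCP1 KO library, lowest at 4.66, lies above that of every dKO library, highest at 3.90.

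The targeted genes were read first. Fgf21 (chr7:45613886-45615490, minus strand, GENCODE on GRCm38) had 28, 23, 176, 286 and 385 counts in UCP1 KO 1 to 5 and 0 counts in each of the 5 dKO libraries. In CPM the UCP1 KO libraries measured 0.861, 0.594, 6.5, 9.64 and 14, so that 3 libraries were high and UCP1 KO 1 and 2 were low. Against a floor of 3 counts per library, the UCP1 KO mean of Fgf21 was at least 87.5-fold higher (adjusted p = 0.00147, edgeR's quasi-likelihood test). WT libraries held 5, 11, 3, 7 and 2 counts, and the FGF21 KO libraries 0 to 1. The absence of the hormone's transcript in the dKO libraries is what the deletion sets.

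Ucp1 (chr8:83290352-83298452, plus strand) went against the labels of both groups, since both are labelled as lacking it. It had 7959, 3942, 12868, 10029 and 20264 counts in the libraries labelled UCP1 KO, and 196, 717, 969, 1189 and 878 counts in those labelled dKO. In CPM these were 245, 102, 475, 338 and 735 CPM in UCP1 KO 1 to 5 and 4.0, 17.3, 22.4, 29.1 and 24.5 CPM in dKO 1 to 5, with no overlap (exact permutation test, two-sided, p = 0.00794, which is the lowest value this design allows). The log2 fold change of 4.28 (SE 1.15) did not pass the test across all genes (adjusted p = 0.0576). Which part of the gene the reads came from was not analysed here, so that these counts measure reads assigned to the Ucp1 locus and not UCP1 protein. The WT libraries had 109 to 776 counts, fewer than each library labelled UCP1 KO. In brown adipose tissue (BAT) the order followed the labels, with 24291 to 60779 counts of Ucp1 in UCP1 KO and 40641 to 90118 in dKO, below the 98548 to 216085 counts of WT.

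In UCP1 KO iWAT, genes for burning fatty acids (Cpt1b, Hadha) and for elongating and recycling lipids (Elovl3, Elovl6, Gk) were higher than in dKO. Also higher were genes for glycolysis (Pkm, Eno1), for the acyl-CoA thioesterase Acot11 and for the regulator PPAR alpha. Of the 5 genes called lower, 4 were immediate early genes, among them Fosb and Egr1. Across the 17380 genes tested, 81 genes (0.466%) were called with an adjusted p under 0.01. Of these, 76 (0.437%) were higher in UCP1 KO and 5 (0.0288%) were lower. At an adjusted p under 0.05 the counts were 341 higher (1.96%) and 63 lower (0.362%), of which 5 were immediate early genes. At an unadjusted p under 0.05 there were 2475 genes (14.2%), and DESeq2 called 535 of the 17088 genes (3.13%) to which it gave an adjusted p, the background for the list counts by these tests. Among the genes called higher, the log2 fold change had a median of 1.92, and it ranged from 0.45 to 6.26 in those with more than 3 counts in some dKO library, beside a median of -0.04 over all genes tested. The libraries did not overlap for 68 of the 76 and for 5 of 5 of those called lower, where 1.48% of all genes lay without overlap higher in UCP1 KO and 0.616% higher in dKO. By sign, 7878 of all genes tested lay above 0 and 9502 below 0, the background for the sign counts of the lists. Flna lay just inside the threshold (adjusted p = 0.00974) and Suclg1 just outside (adjusted p = 0.0111). In bulk tissue, fewer cells of a type and less RNA per cell cannot be told apart.

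The UCP1 KO libraries were not alike in these 76 genes. The median gene lay 1.55, 0.69, 1.94, 2.04 and 2.59 log2 units above the dKO mean in UCP1 KO 1 to 5. UCP1 KO 5 was the highest of its group for 68 of the 76 genes, and UCP1 KO 2, the library with lymph node RNA, was the lowest for 71. The dKO libraries spread less, from -0.33 in dKO 1 to 0.28 in dKO 4, and dKO 4 was the highest of its group for 43 genes. Fgf21, a member of the set, was likewise highest in UCP1 KO 5 and lowest in UCP1 KO 2.

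All 81 genes kept their direction in every setting tried, but the number that passed depended on the libraries used. Each setting reused libraries in which the 81 had been chosen, so the kept direction is a description. Leaving out 1 of the 20 libraries at a time gave 13 to 372 calls, 13 without dKO 2 and 372 without UCP1 KO 2, and for 15 of the 20 the count moved by more than 1.5 times. Without the libraries with a skeletal muscle score above 4 (UCP1 KO 1 and 5 and dKO 1 among the 10), 0 genes were called (edgeR's quasi-likelihood test, 1393 at an unadjusted p under 0.05), and fitting the 10 libraries alone also called 0 (2072 unadjusted), while without the libraries with a lymph node score above 4 the count was 164, of which 45 were among the 81.

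**Figure D2:**
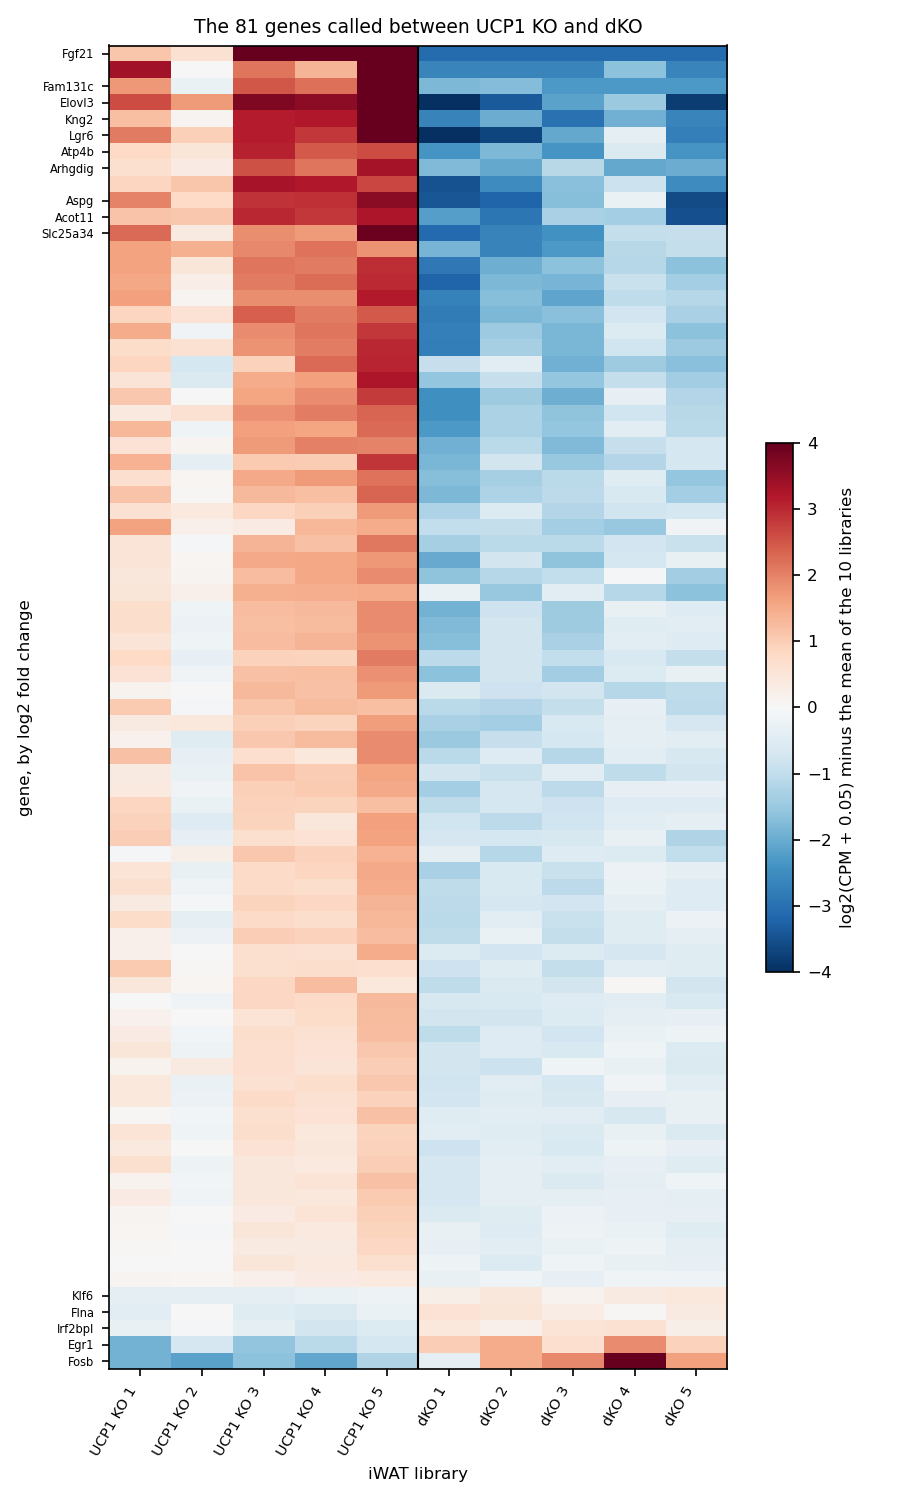
The 81 genes called between UCP1 KO and dKO in iWAT, ordered by log2 fold change (vertical axis), in each of the 10 libraries (horizontal axis). Colour shows log2(CPM + 0.05) minus the mean of the 10 libraries, red above and blue below, and names mark the 10 largest rises among characterised genes and the 5 genes called lower. The block of 76 genes is reddest in UCP1 KO 5 and palest in UCP1 KO 2, and the 5 genes at the foot of the plot are higher in the dKO libraries.

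Ranked by fitted log2 fold change, the largest rises after Fgf21 among characterised genes were in genes of very different roles. Fam131c (chr4:141368220-141384175, plus strand) measured 0.769, 0.155, 1.33, 1.08 and 4.71 CPM in UCP1 KO 1 to 5 and at most 1 count in any dKO library. It was at least 22.3-fold higher (adjusted p = 0.00257). Elovl3 (chr19:46131897-46135694, plus strand), an elongase of very long chain fatty acids induced by cold in brown fat, measured 106, 56.6, 232, 209 and 426 CPM in UCP1 KO 1 to 5 and 0.368, 1.67, 3.92, 6.25 and 1.2 CPM in dKO 1 to 5. The lowest UCP1 KO library lay above the highest dKO library by far (log2 fold change 6.26, SE 1.0, adjusted p = 0.00394). Kng2 (chr16:22985854-23029482, minus strand), a kininogen, the precursor of kinin peptides, measured 5.44, 2.56, 21.4, 22.1 and 56.7 CPM in UCP1 KO 1 to 5 and 0.327, 0.556, 0.254, 0.588 and 0.335 CPM in dKO 1 to 5 (log2 fold change 5.7, SE 0.84, adjusted p = 0.00257). Each dKO value was below 1 CPM and each UCP1 KO value above that level. Lgr6 (chr1:134983301-135105276, minus strand), a receptor for R-spondins that strengthens Wnt signalling, measured 5.26, 2.38, 11.1, 8.87 and 29.3 CPM in UCP1 KO 1 to 5 and 0, 0.0484, 0.254, 0.906 and 0.14 CPM in dKO 1 to 5 (log2 fold change 5.39, SE 0.96, adjusted p = 0.00802). Levels were again lowest in UCP1 KO 2, without overlap.

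Atp4b (chr8:13386205-13396825, minus strand), the beta subunit of the gastric proton pump, measured 0.40, 0.31, 2.14, 1.35 and 1.52 CPM in UCP1 KO 1 to 5 and 0, 0.0242, 0, 0.122 and 0 CPM in dKO 1 to 5 (log2 fold change 5.15, SE 0.91, adjusted p = 0.00748). Arhgdig (chr17:26199183-26207786, minus strand) measured 0.43, 0.336, 1.77, 1.31 and 3.08 CPM in UCP1 KO 1 to 5 and 0.0409, 0.0242, 0.0924, 0.0245 and 0.0279 CPM in dKO 1 to 5 (log2 fold change 4.92, SE 0.66, adjusted p = 0.00147). Both were low in every library, and neither overlapped between the groups. Aspg (chr12:112106679-112127559, plus strand), an asparaginase, measured 24.5, 10.7, 45.6, 46.6 and 75.6 CPM in UCP1 KO 1 to 5 and 0.531, 0.629, 1.85, 5.1 and 0.475 CPM in dKO 1 to 5 (log2 fold change 4.56, SE 0.74, adjusted p = 0.00394). Acot11 (chr4:106744555-106804998, minus strand), an acyl-CoA thioesterase known as induced by cold in brown fat, measured 88.7, 85.7, 327, 286 and 378 CPM in UCP1 KO 1 to 5 and 8.83, 5.39, 16.4, 15.6 and 3.52 CPM in dKO 1 to 5 (log2 fold change 4.55, SE 0.54, adjusted p = 0.000978). Acot11 was among the 11 genes that stayed called when any of the 20 libraries was left out. Slc25a34 (chr4:141618824-141623821, minus strand), a carrier of the inner mitochondrial membrane, measured 21.8, 5.71, 16.2, 14.7 and 68.2 CPM in UCP1 KO 1 to 5 and 0.47, 0.653, 0.785, 2.25 and 2.32 CPM in dKO 1 to 5 (log2 fold change 4.29, SE 0.67, adjusted p = 0.00338). UCP1 KO 5 was the highest and UCP1 KO 2 the lowest of the group, and no library overlapped.

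**Figure D3:**
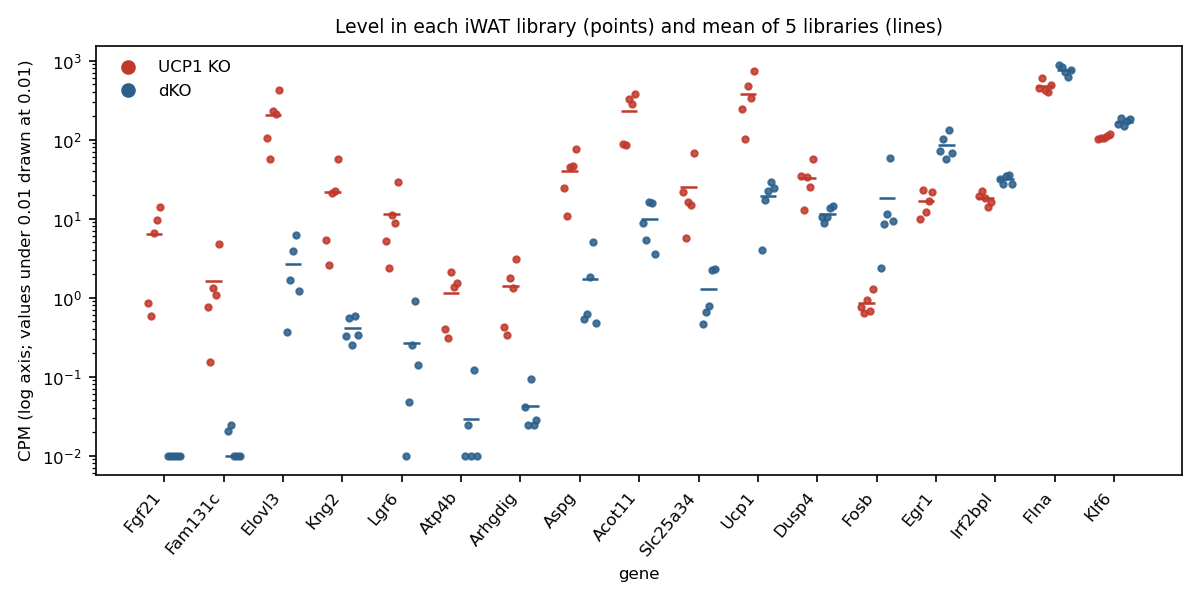
Level in CPM on a log axis of the 10 largest rises, Ucp1, Dusp4 and the 5 genes called lower, with 1 point per iWAT library and a line at the mean of 5 libraries. For Elovl3 the 5 UCP1 KO libraries lie between 56.6 and 426 CPM and the 5 dKO libraries between 0.368 and 6.25, while Dusp4 is the plotted gene whose groups overlap.

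The promoters of the genes that rose together were read from RefSeq on GRCm38.p6, from 250 bases before to 50 bases after each start. Nuclear receptors, among them PPAR alpha with its partner RXR and the estrogen-related receptors, bind variants of the core motif AGGTCA, which was searched on both strands. Of the 10 largest rises, 7 had a window in the table, and 3 of these held it. Their sequences are shown with the core motif in capitals, which reads TGACCT where it lies on the other strand.
Fam131c: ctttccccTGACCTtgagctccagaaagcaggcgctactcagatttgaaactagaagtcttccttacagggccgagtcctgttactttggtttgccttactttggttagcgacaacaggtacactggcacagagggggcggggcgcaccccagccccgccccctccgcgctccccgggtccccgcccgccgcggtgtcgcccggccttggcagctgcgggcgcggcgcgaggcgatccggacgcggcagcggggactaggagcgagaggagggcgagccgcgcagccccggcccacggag
Kng2: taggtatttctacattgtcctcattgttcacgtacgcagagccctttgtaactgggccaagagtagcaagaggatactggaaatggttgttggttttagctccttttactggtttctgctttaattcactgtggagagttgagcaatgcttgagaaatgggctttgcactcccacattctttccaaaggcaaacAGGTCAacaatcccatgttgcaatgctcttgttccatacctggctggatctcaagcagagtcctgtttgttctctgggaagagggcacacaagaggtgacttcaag
Slc25a34: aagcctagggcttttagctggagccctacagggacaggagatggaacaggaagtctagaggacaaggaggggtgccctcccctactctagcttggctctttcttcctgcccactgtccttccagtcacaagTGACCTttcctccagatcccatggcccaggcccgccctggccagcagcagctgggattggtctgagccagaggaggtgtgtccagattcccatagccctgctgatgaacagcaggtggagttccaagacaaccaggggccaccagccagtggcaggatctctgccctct
The windows lie at chr4:141367942-141368241, plus strand (Fam131c), chr16:23029052-23029351, minus strand (Kng2) and chr4:141623785-141624084, minus strand (Slc25a34), and the core motif begins at base -242, -56 and -119 from the start, in that order. Among the genes called higher, 57 had 76 windows, of which 10 (13.2%) held the core motif, against 16.3% of all 32851 windows and 13.3% of the 15231 windows of tested genes. Among the genes higher at an adjusted p under 0.05 the share was 18.3% of 323 windows. The direct repeat AGGTCANAGGTCA was in 0 of the 76 windows, 0.0396% of all windows and 0.046% of those of tested genes. TNAAGGTCA, which contains the core motif, was in 1 of 76 (1.32%) and in 0.619% of the windows of genes higher at 0.05. These stand against 1.28% of all windows and 0.84% of those of tested genes. The core of the cAMP response element, TGACG, was in 25% of the windows of genes called higher, 37.8% of those of genes higher at 0.05, 28.3% of those of tested genes and 20.8% of all. The GC box GGGCGG was in 57.9%, 55.7%, 57.6% and 35.7%, in the same order. No match says only that these letters are not in this window.

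Many genes typical of brown and beige adipocytes were higher in UCP1 KO. Of the 24 tested of 25 listed, 8 were called higher and 0 lower, and 16 were higher and 1 lower at an adjusted p under 0.05, with a median log2 fold change of 2.30. The list was chosen with earlier results of these data known and shares members with the genes the study plotted from these libraries. Its counts are therefore not independent evidence. Besides Acot11 and Elovl3 the 8 were Letmd1 (2.22), an inner membrane protein of brown fat mitochondria, Pank1 (2.55), which starts coenzyme A synthesis, Cpt1b (3.81), Gk (2.69), Ppara (3.43) and Cox7a1 (3.72). Cpt1b (chr15:89416405-89425863, minus strand), the gate for fatty acids into mitochondria, measured 248, 115, 355, 339.9 and 634 CPM in UCP1 KO 1 to 5 and 11.1, 21.2, 25.9, 36.8 and 25.9 CPM in dKO 1 to 5 (log2 fold change 3.81, SE 0.56, adjusted p = 0.00257). Cox7a1 (chr7:30184144-30186078, plus strand), a cytochrome c oxidase subunit of muscle and brown fat, measured 83, 34.2, 119, 132 and 223 CPM in UCP1 KO 1 to 5 and 3.04, 8.08, 7.71, 15.2 and 10.9 CPM in dKO 1 to 5 (log2 fold change 3.72, SE 0.68, adjusted p = 0.00855). In both genes each UCP1 KO library stood above each dKO library. With skeletal muscle score entered as covariate, the log2 fold change of Cpt1b was 3.62 (adjusted p = 0.00383), and that of Cox7a1 was 3.48, no longer called (adjusted p = 0.0109). Without the libraries above the muscle limit the values were 3.28 (adjusted p = 0.0397) and 3.17 (adjusted p = 0.113), in the same order.

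Other markers of this list passed only the wider threshold. Cidea, a lipid droplet protein of brown fat, measured 340.2, 185, 551, 596 and 1185 CPM in UCP1 KO 1 to 5 and 10.2, 40.9, 32, 68.4 and 42.3 CPM in dKO 1 to 5 (log2 fold change 3.88, SE 0.74, adjusted p = 0.0112). Its groups did not overlap, and the same was true of P2rx5, a purinergic receptor, at 26.2 ± 10.0 against 8.69 ± 3.1 CPM (log2 fold change 1.59, SE 0.33, adjusted p = 0.0189). Dio2, which activates thyroid hormone, was at 29.8 ± 27 against 3.05 ± 2.82 CPM with overlap (log2 fold change 3.29, SE 0.72, adjusted p = 0.0229). Bmp8b, a secreted factor of brown fat, was at 4.9 ± 5.01 against 0.0633 ± 0.104 CPM (adjusted p = 0.0124). Lhx8, a transcription factor proposed as a brown fat marker, was lower, at 2.16 ± 0.462 against 4.5 ± 1.57 CPM (log2 fold change -1.06, SE 0.21, adjusted p = 0.0161). Prdm16, the regulator that commits cells to the brown fate, was at 22.4 ± 6.55 against 21.7 ± 6.69 CPM (0.04, adjusted p = 0.962), and Ebf2, which works with it, at 58.8 ± 21.5 against 35.1 ± 12.4 CPM (0.74, adjusted p = 0.346).

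Markers proposed as selective for beige adipocytes gave 0 calls among 10 tested at either threshold of edgeR's quasi-likelihood test (0 at an unadjusted p under 0.05, 0 called by DESeq2), with a median of 0.03, of which Tmem26 (-0.27) and Tnfrsf9 (-0.62) are cell surface proteins and Cited1 (0.99) is a nuclear protein. Among 13 tested white adipocyte markers 0 were called (3 at an unadjusted p under 0.05, 2 called by DESeq2) and the median was -0.61. Leptin (Lep), the hormone that reports fat mass, was at 277 ± 215 against 1706 ± 1314 CPM (-2.62, adjusted p = 0.0712), and Sfrp5, a Wnt inhibitor, at 8.25 ± 4.65 against 52.3 ± 41.5 CPM (-2.66, adjusted p = 0.056). Both pairs of groups overlapped. Genes of any mature adipocyte, among them Adipoq, Pparg and Fabp4, gave 0 calls of 18 (1 at an unadjusted p under 0.05, 0 called by DESeq2) and a median of 0.23, with the adiponectin gene Adipoq at 2033 ± 543 against 2352 ± 856 CPM (-0.21, adjusted p = 0.81).

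The list of fatty acid oxidation also holds acyl-CoA thioesterases. All 26 genes tested had a positive log2 fold change, 6 were called, 11 were higher at an adjusted p under 0.05 and the median was 1.18. Beyond Acot11 and Cpt1b the calls were Acot2 (3.04, adjusted p = 0.00394), a thioesterase of the mitochondrial matrix, and 3 enzymes of the beta-oxidation spiral. Acadvl, the first step for very long chains, was at 1215 ± 579 against 300.5 ± 123 CPM (2.02, adjusted p = 0.00941). Hadha, the alpha subunit of the trifunctional protein, was at 1193 ± 563 against 318 ± 115 CPM (1.91, adjusted p = 0.00677). Acaa2, the thiolase that ends each turn, was at 627 ± 297 against 161 ± 53.4 CPM (1.97, adjusted p = 0.00855). With skeletal muscle score entered as covariate, the list had 5 calls and a median of 1.22. Without the libraries above the muscle limit it had 0 calls and a median of 0.82. Of the peroxisome genes 0 of 24 tested were called (10 at an unadjusted p under 0.05, 4 called by DESeq2) and 3 passed the wider threshold, Acox2, Acot4 and Ehhadh, with a median of 0.51.

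Downstream of beta-oxidation, the citric acid cycle had 2 called of 19 tested, 11 higher at the wider threshold and a median of 1.25. The calls included Idh3b, a subunit of the NAD-dependent isocitrate dehydrogenase, at 583 ± 241 against 201 ± 60.2 CPM (1.54, adjusted p = 0.00822). UCP1 KO 2 was the lowest of its group for this gene, at 291 CPM, and the groups did not overlap, with the highest dKO library at 259.8 CPM. For pyruvate dehydrogenase and its regulators 1 of 13 was called, Pdk4, the kinase that shuts the enzyme off, at 1652 ± 1106 against 203 ± 117 CPM (3.02, adjusted p = 0.00394), while 6 were higher at 0.05 and the median was 1.34, so that the kinase and several subunits such as Pdhb (1.74, adjusted p = 0.0145) were higher together.

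In the respiratory chain, the log2 fold change was above 0 for nearly all subunits, and few passed the test. For complex I, 36 of 36 subunits had positive values, with a median of 0.95, 1 call (Ndufa6, 1.07, adjusted p = 0.00824) and 13 at the wider threshold. Complex II had 0 calls of 4, 3 higher at 0.05 and a median of 1.2, and complex III had 0 calls of 9, 7 higher at 0.05 and a median of 1.12 (DESeq2 called 3 and 7). Complex IV had 2 calls of 15, Cox7a1 and Cox5a (1.43, adjusted p = 0.00961), 5 at 0.05 and a median of 1.0. For ATP synthase 0 of 16 were called (12 at an unadjusted p under 0.05, 8 called by DESeq2), 4 passed at 0.05 and the median was 0.79. The mitochondrial ribosome, which translates the subunits encoded in mitochondria, had 76 of 76 tested proteins above 0, but a smaller median of 0.44, 0 calls (51 at an unadjusted p under 0.05, 15 called by DESeq2) and 8 at the wider threshold. Mitochondrial chaperones and proteases gave 0 calls of 16 (13 at an unadjusted p under 0.05, 6 called by DESeq2), 6 at 0.05 and a median of 0.71. Samm50 (1.09, adjusted p = 0.00394), which inserts proteins into the outer membrane, Chchd10 (2.73, adjusted p = 0.00494), a protein of the intermembrane space, and Lrpprc (0.93, adjusted p = 0.00941), which stabilizes mitochondrial messengers, were called outside the lists. With skeletal muscle score entered as covariate, the calls of complex I and complex IV, and those of the citric acid cycle, fell to 0 with medians of 0.975, 1.03 and 1.30, and without the libraries above the muscle limit they had 0 calls and medians of 0.65, 0.70 and 0.91.

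Of 45 mitochondrial carriers tested, 2 were called, Slc25a34 and Slc25a42, the coenzyme A carrier, at 115 ± 69.3 against 30.1 ± 3.89 CPM (1.93, adjusted p = 0.00394), 8 were higher at 0.05 and the median was 0.27. The shuttle enzyme Gpd2, which passes electrons from cytosolic glycerol 3-phosphate to the chain, was at 419 ± 218 against 70.8 ± 26.1 CPM (2.57, adjusted p = 0.00147), without overlap. Adck3, a kinase-like protein needed for coenzyme Q, was at 160.4 ± 47.6 against 44.1 ± 11.7 CPM (1.86, adjusted p = 0.00147), and Phospho1 (chr11:95824499-95832140, plus strand), a phosphatase of phosphocholine, at 168 ± 120.3 against 13.5 ± 5.99 CPM (3.64, adjusted p = 0.00147). These 3 genes kept their call without any single library. Ppif (1.28, adjusted p = 0.00345), cyclophilin D of the permeability transition, Acsf2 (1.41, adjusted p = 0.00338), an acyl-CoA synthetase, and Ddhd2 (1.43, adjusted p = 0.00394), a lipase, were also called.

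**Figure D4:**
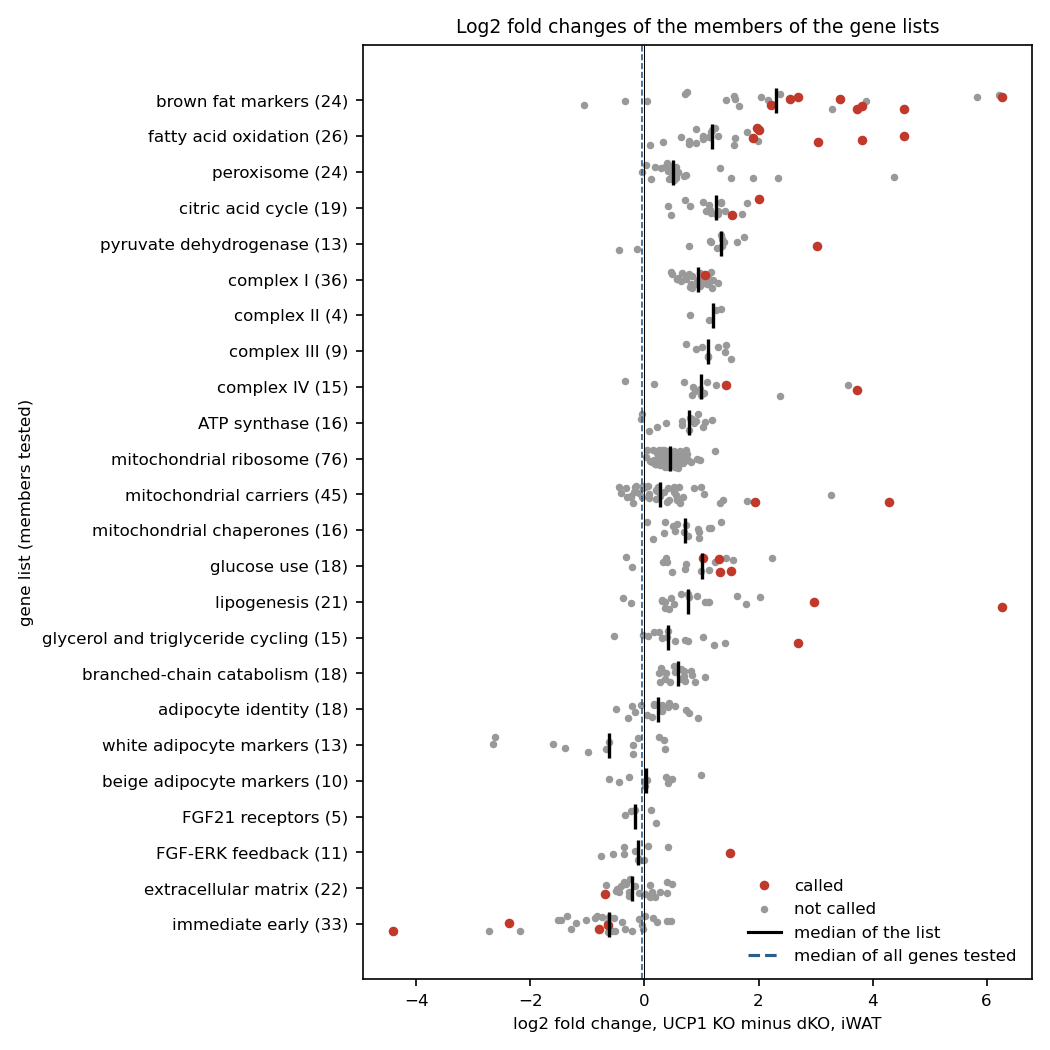
Log2 fold change of UCP1 KO over dKO in iWAT (horizontal axis) for every tested member of the gene lists (vertical axis, number tested in brackets). Red points passed an adjusted p under 0.01, grey points did not, black bars are list medians and the dashed line is the median of all genes tested. The respiratory chain lists sit to the right of the line with medians from 0.79 to 1.2 and few red points, while the immediate early genes sit to the left with a median of -0.63.

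Several genes of lipid synthesis and glucose use were higher. Of 21 lipogenesis genes 2 were called, Elovl3 and Elovl6, the elongase of palmitate, at 688 ± 359.9 against 87.3 ± 32.8 CPM (2.98, adjusted p = 0.00941), and the median was 0.77. Acaca, which makes malonyl-CoA, measured 1222, 948, 1992, 2344 and 2149.5 CPM in UCP1 KO 1 to 5 and 211, 566, 445, 979 and 606 CPM in dKO 1 to 5 (log2 fold change 1.62, SE 0.46, adjusted p = 0.0728), and the groups overlapped. Fasn, fatty acid synthase, was at 12853 ± 4253 against 6178 ± 3280.2 CPM (1.06, adjusted p = 0.42). Of 15 genes of glycerol and triglyceride cycling 1 was called, Gk (chrX:85701937-85776819, minus strand), the glycerol kinase that lets adipocytes reuse glycerol, which measured 119, 35.3, 92.2, 91.1 and 326 CPM in UCP1 KO 1 to 5 and 12.5, 27.2, 15.7, 19.9 and 27.6 CPM in dKO 1 to 5 (log2 fold change 2.69, SE 0.42, adjusted p = 0.00338). Gpd1, the cytosolic glycerol 3-phosphate dehydrogenase, measured 2727, 1545, 4235, 3406 and 4162 CPM in UCP1 KO 1 to 5 and 542, 1679, 609, 1113 and 2061 CPM in dKO 1 to 5 (log2 fold change 1.42, SE 0.47, adjusted p = 0.126). The median of the list was 0.41.

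For glucose use, 4 of 18 genes were called, all in glycolysis, with 7 at 0.05 and a median of 1.01. Pkm, pyruvate kinase, was at 1267 ± 399.6 against 445 ± 62.8 CPM (1.51, adjusted p = 0.0032), Gpi1 at 625 ± 172 against 305 ± 42.4 CPM (1.03, adjusted p = 0.00473), Pgk1 at 332 ± 126 against 133 ± 29.9 CPM (1.32, adjusted p = 0.00855) and Eno1 at 316 ± 120.4 against 127 ± 29.3 CPM (1.31, adjusted p = 0.00941). With skeletal muscle score entered as covariate Pkm and Gpi1 kept their call, and Pgk1 (adjusted p = 0.0141) and Eno1 (adjusted p = 0.0109) did not, with a list median of 0.82. Without the libraries above the muscle limit the list had 0 calls and a median of 0.58. Fatty acid uptake had 1 call of 14, the acyl-CoA synthetase Acsl5 at 237 ± 95.7 against 103 ± 6.93 CPM (1.2, adjusted p = 0.00394), and a median of 0.38 that was 0.05 both without the libraries above the lymph node limit and without those above the muscle limit. Breakdown of branched-chain amino acids gave 0 calls of 18 at either threshold (7 at an unadjusted p under 0.05, 0 called by DESeq2) and a median of 0.59, with 18 of 18 above 0.

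Of the 22 transcriptional regulators of mitochondria and browning, 1 was called, Ppara (chr15:85734983-85802819, plus strand), which switches on genes of fatty acid oxidation, at 175 ± 124 against 16.3 ± 7.21 CPM (log2 fold change 3.43, SE 0.57, adjusted p = 0.0041). At the wider threshold Esrra (0.66, adjusted p = 0.0166), Ppargc1b (1.78, adjusted p = 0.0208), Tfb2m (0.58, adjusted p = 0.0322), a factor of mitochondrial transcription, and Ppargc1a (1.66, adjusted p = 0.044), which encodes PGC1 alpha, were also higher. Ppargc1a was at 29.9 ± 18.7 against 9.48 ± 3.88 CPM and its groups overlapped, whereas those of Esrra and Ppargc1b did not. The list's median was 0.39.

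The receptors that receive FGF21 were present in both groups. Klb was at 89.3 ± 23.4 against 78 ± 28.1 CPM (0.2, adjusted p = 0.841) and Fgfr1 at 210.2 ± 51 against 248 ± 87.1 CPM (-0.24, adjusted p = 0.77), and 0 of the 5 genes were called (0 at an unadjusted p under 0.05, 0 called by DESeq2), with a median of -0.17. Of 11 feedback genes of FGF and ERK signalling 1 was called, Dusp4 (chr8:34807297-34819894, plus strand), a phosphatase that switches ERK off. It measured 35, 12.9, 34.1, 25.2 and 57.4 CPM in UCP1 KO 1 to 5 and 10.5, 8.85, 10.6, 13.7 and 14.4 CPM in dKO 1 to 5 (log2 fold change 1.5, SE 0.28, adjusted p = 0.00969, two-sided exact permutation p = 0.0238). Only UCP1 KO 2 lay within the range of the dKO libraries. Dusp4 was no longer called with skeletal muscle score entered as covariate (1.42, adjusted p = 0.0164), nor without the libraries above the limits for lymph node (1.59, adjusted p = 0.0133), epithelial (1.55, adjusted p = 0.0433) or skeletal muscle markers (1.01, adjusted p = 0.266). Of the list, 8 of 11 were below 0, beside 9502 of all 17380 genes tested, and the median was -0.12. Members that did not pass were Spry1 (-0.76, adjusted p = 0.122), Spry2 (-0.36, adjusted p = 0.616) and Etv5 (-0.12, adjusted p = 0.851).

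Adrenergic and cAMP signalling, the route by which nerves act on fat, gave 2 calls of 18 and a median of 0.14. Adcy3, an adenylyl cyclase, was at 129 ± 74.3 against 40.1 ± 8.54 CPM (1.69, adjusted p = 0.00621) and Pde4d, a phosphodiesterase that removes cAMP, at 62.6 ± 29.4 against 22.1 ± 4.82 CPM (1.5, adjusted p = 0.00795). The receptor Adrb3 was at 552 ± 155 against 450.2 ± 263 CPM (0.29, adjusted p = 0.801). With the skeletal muscle covariate the list had 0 calls and a median of 0.23. Pde4a (0.95, adjusted p = 0.00752) and the soluble cyclase Adcy10 (2.71, adjusted p = 0.00677) were called outside the list. Of 17 genes of the integrated stress response 0 were called (6 at an unadjusted p under 0.05, 1 called by DESeq2), Trib3 (2.23, adjusted p = 0.0425) passed the wider threshold and the median was 0.47. The batokines, factors that brown fat secretes, had Fgf21 as the 1 call of 9 and Bmp8b next at 0.05, with Gdf15 at 2.03 ± 1.18 against 0.775 ± 0.229 CPM (1.38, adjusted p = 0.161).

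The 5 genes called lower in UCP1 KO were 4 of the 33 immediate early genes, whose transcription starts within minutes of a stimulus, and 1 gene of the cytoskeleton. Fosb (chr7:19302696-19310051, minus strand), a partner of the AP-1 factor, measured 0.769, 0.646, 0.923, 0.674 and 1.27 CPM in UCP1 KO 1 to 5 and 2.35, 8.47, 11.5, 59.1 and 9.39 CPM in dKO 1 to 5 (log2 fold change -4.4, SE 0.67, adjusted p = 0.00278). Egr1, a zinc finger factor induced by growth factors, measured 9.78, 22.9, 12.1, 16.9 and 22 CPM in UCP1 KO 1 to 5 and 70.9, 102, 57.1, 133 and 68.7 CPM in dKO 1 to 5 (log2 fold change -2.37, SE 0.35, adjusted p = 0.00262). In both genes every dKO library was above every UCP1 KO library, and dKO 4 was the highest. Irf2bpl (chr12:86880701-86884798, minus strand), a transcriptional regulator, measured 19.4, 22.3, 18.2, 14.2 and 16.1 CPM in UCP1 KO 1 to 5 and 31.7, 27.1, 34.9, 36.2 and 27.6 CPM in dKO 1 to 5 (log2 fold change -0.8, SE 0.13, adjusted p = 0.00394). Klf6 (chr13:5861482-5870394, plus strand), a Krüppel-like factor, measured 103, 104, 106, 113 and 118 CPM in UCP1 KO 1 to 5 and 159, 187, 148, 173 and 180.1 CPM in dKO 1 to 5 (log2 fold change -0.64, SE 0.09, adjusted p = 0.00257). Flna (chrX:74223461-74249820, minus strand), filamin A, which crosslinks actin, measured 448, 597, 423, 399.8 and 495 CPM in UCP1 KO 1 to 5 and 881, 827, 727, 618 and 769 CPM in dKO 1 to 5 (log2 fold change -0.69, SE 0.13, adjusted p = 0.00974). For these 3 the changes were small, but the libraries of each group lay close together and did not overlap. Flna was no longer called with the skeletal muscle covariate (adjusted p = 0.0141) or without the libraries above the limits for lymph node (adjusted p = 0.011), epithelial (adjusted p = 0.0123) or skeletal muscle markers (adjusted p = 0.342). Cyr61 also was lower at 0.05 (-1.3, adjusted p = 0.0208). Of the whole list 28 of 33 genes were below 0, with a median of -0.63, and Fos, the best known member, was at 8.33 ± 5.85 against 38 ± 50.2 CPM with overlap (-2.19, adjusted p = 0.0634).

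For the pathways proposed to make heat without UCP1, 0 of 7 genes of creatine cycling and 0 of 10 of calcium cycling were called at either threshold, by edgeR or at 0.01 by DESeq2, with medians of 0.12 and 0.11. At an unadjusted p under 0.05 there were 1 and 0. Ckmt2, the mitochondrial creatine kinase, measured 79.3, 0.258, 0.369, 0.236 and 2.1 CPM in UCP1 KO 1 to 5 and 2.33, 0.435, 0.369, 0.294 and 0.475 CPM in dKO 1 to 5 (log2 fold change 4.38, SE 2.12, adjusted p = 0.361). Its level was high in UCP1 KO 1, the library with the highest muscle score, and the log2 fold change without that library was -0.10. Slc6a8, the creatine transporter, measured 38.1, 10.4, 25.1, 27.5 and 29.6 CPM in UCP1 KO 1 to 5 and 16.8, 30.2, 15.7, 31.7 and 25.9 CPM in dKO 1 to 5 (log2 fold change 0.12, SE 0.28, adjusted p = 0.862), and its sign also turned without UCP1 KO 1, to -0.05. Atp2a2, the SERCA2 calcium pump, measured 239, 193, 274, 291 and 364 CPM in UCP1 KO 1 to 5 and 184, 277, 196, 230.4 and 290.0 CPM in dKO 1 to 5 (log2 fold change 0.21, SE 0.17, adjusted p = 0.648). Ryr2, a calcium release channel, measured 1.54, 5.11, 5.39, 5.23 and 6.05 CPM in UCP1 KO 1 to 5 and 3.35, 7.62, 4.2, 1.76 and 10.6 CPM in dKO 1 to 5 (log2 fold change -0.24, SE 0.48, adjusted p = 0.846) and its sign turned without dKO 5, to 0.14. Pm20d1, an enzyme that makes N-acyl amino acids, measured 7.1, 4.36, 13, 9.14 and 13.4 CPM in UCP1 KO 1 to 5 and 3.86, 8.59, 4.29, 6.47 and 7.24 CPM in dKO 1 to 5 (log2 fold change 0.63, SE 0.47, adjusted p = 0.62). In each of these 5 genes the groups overlapped. Of the 15 genes that the study plotted for iWAT, 5 were called and 8 were higher at 0.05, but since the study plotted this list from the same libraries, the count is not independent evidence.

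Markers of other cell types were read over whole lists. Macrophages (0 called of 12, median 0.13), blood vessels (0 of 10, -0.02), adipocyte progenitors (0 of 6, 0.09), smooth muscle (0 of 5, -0.30), Schwann cells (0 of 5, 0.10), red blood cells (0 of 3, -0.51) and liver (0 of 5, 1.38) gave no call at either threshold by edgeR or at 0.01 by DESeq2, with 0, 3, 1, 1, 1, 0 and 0 genes at an unadjusted p under 0.05, in that order. Mast cells gave 0 of 5 by edgeR (1 at an unadjusted p under 0.05, 1 called by DESeq2), with Kit lower at 0.05 (-0.64, adjusted p = 0.0464). Lymph node markers were at a median of -0.98, epithelial markers at -2.67 and skeletal muscle markers at 4.38, and without the libraries above the limits named the medians were 0.18, 1.41 and -0.51. Extracellular matrix genes gave 1 call, Flna, of 22 and a median of -0.21, and ketone body genes 0 of 5 by edgeR (1 at an unadjusted p under 0.05, 0 called by DESeq2) and 0.19. Lipid droplet proteins gave 0 calls of 12 by edgeR (5 at an unadjusted p under 0.05, 3 called by DESeq2) and a median of 0.30, with Cidea and Plin5 (2.17, adjusted p = 0.0324) higher at 0.05. Antioxidant enzymes gave 0 calls of 12 by edgeR (5 at an unadjusted p under 0.05, 1 called by DESeq2) and a median of 0.56, with Prdx3 higher at 0.05 (1.1, adjusted p = 0.043).

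The list medians also depended on the libraries with RNA of other tissues. Without the libraries above the skeletal muscle limit, with 0 calls in every list, the median moved toward 0 by more than 1.5 times for mature adipocyte genes (0.067), peroxisome genes (0.27), ATP synthase (0.51), mitochondrial carriers (0.16), the mitochondrial ribosome (0.29), mitochondrial chaperones and proteases (0.45), adrenergic signalling (0.058) and antioxidant enzymes (0.27). It moved away from 0 for FGF and ERK feedback (-0.27), beige markers (0.2), ketone body genes (0.29), blood vessels (-0.23), extracellular matrix (-0.46), smooth muscle (-0.65), mast cells (-0.44) and red blood cells (-0.9), and the sign turned for lipid droplet proteins (-0.025), creatine cycling (-0.45), calcium cycling (-0.15), macrophages (-0.34), adipocyte progenitors (-0.3) and Schwann cells (-0.23). Without the libraries above the lymph node limit, the median moved toward 0 by more than 1.5 times for peroxisome genes (0.33), glycerol and triglyceride cycling (0.14), lipid droplet proteins (0.1), creatine cycling (0.015), adrenergic signalling (0.016) and antioxidant enzymes (0.36). It moved away from 0 for FGF21 receptors (-0.38), FGF and ERK feedback (-0.18), beige markers (0.13), blood vessels (-0.22), extracellular matrix (-0.38), smooth muscle (-0.63), red blood cells (-0.9) and Schwann cells (0.2), and the sign turned for mature adipocyte genes (-0.063) and adipocyte progenitors (-0.022).

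The WT and FGF21 KO libraries place both groups. Relative to WT, the 76 genes called higher had a median log2 fold change of 1.79 in UCP1 KO, -0.01 in dKO and -0.31 in FGF21 KO, and all 76 lay above WT in UCP1 KO. The lymph node score was 6.93 to 7.33 in FGF21 KO 1, 3, 4 and 5, where the adipocyte identity score was 7.68 to 8.75, and 6.40 and 6.85 in WT 4 and 5, and its part in these medians was not tested. Of the 76, 60 were also called between UCP1 KO and WT, where 106 of all genes were called (0.61%). These medians and counts share libraries with the comparison that chose the genes and are given as a description. Between dKO and WT 3 of 17380 genes were called (0.0173%), and 1 between FGF21 KO and WT. Acot11 was at 5.58 ± 2.4 CPM in WT, 7.85 ± 2.06 in FGF21 KO, 233 ± 137 in UCP1 KO and 9.96 ± 5.87 in dKO. Unlike those medians, its means in FGF21 KO and dKO lay above WT. The 5 genes called lower had a median of -0.46 in UCP1 KO and 0.39 in dKO, each relative to WT. Neither comparison with WT called any of them in edgeR's quasi-likelihood test (0 of 5 each). At an unadjusted p under 0.05 there were 3 and 5, beside 14.7% and 5.91% of all genes, and DESeq2 called 1 and 2, beside 3.49% and 0.0972%. Egr1 was at 23.2 ± 11.5 CPM in WT and 29.3 ± 11.5 in FGF21 KO, beside 16.7 ± 5.82 in UCP1 KO and 86.3 ± 30.9 in dKO.

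Whether the loss of FGF21 acted differently with and without UCP1 was tested as an interaction, (UCP1 KO minus dKO) minus (WT minus FGF21 KO). It was called for 0 of 17380 genes in edgeR's quasi-likelihood test (1734 at an unadjusted p under 0.05), for 62 in DESeq2 and for 3 when the lymph node score entered as a covariate. At an adjusted p under 0.05 the counts were 1, 166 and 407, in that order. In edgeR's test without the covariate, Acot11 had the smallest adjusted p, 0.0180, with a difference of 5.04 on the log2 scale. The gene with the smallest adjusted p in the comparison, AK049852, an RNA without a place in the annotation used, had another pattern. It was at 1.6 ± 0.337 CPM in UCP1 KO and 0.949 ± 0.192 in WT, against 0.104 ± 0.0761 in dKO and 0.0903 ± 0.0441 in FGF21 KO (log2 fold change 3.93, SE 0.44, adjusted p = 0.000786). It was low in both groups without FGF21 and was the 1 gene called between FGF21 KO and WT.

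Genes next to a deleted gene can carry alleles from the strain in which the deletion was made, so neighbours were listed. Within 10 Mb of Fgf21, 163 genes were tested and 1 was called, Car11 (chr7:45699843-45704682), a carbonic anhydrase-like protein, at 6.41 ± 1.53 against 2.63 ± 0.428 CPM (1.28, adjusted p = 0.00855). It was at 4.16 ± 1.24 CPM in WT and 2.2 ± 0.643 in FGF21 KO. Sult2b1 (chr7:45729983-45784669), a sulfotransferase, passed at 0.05 (1.84, adjusted p = 0.024). Within 10 Mb of Ucp1, where the labels give both groups the same deletion, 0 of 125 were called by edgeR and 2 passed at 0.05, Mmaa (0.99, adjusted p = 0.026) and Smad1 (-0.37, adjusted p = 0.0475). The part of linked alleles in these differences cannot be told apart from that of the deletion.

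The same contrast was made in BAT, the thermogenic depot, with 5 libraries per genotype. There 10 of 15729 genes (0.0636%) were called between UCP1 KO and dKO. Of the 76 genes higher in iWAT, 2 were called in BAT, Fgf21 and Dusp4. Their median in BAT was -0.11, beside 0.0044 over all genes tested there, and 28 of 76 were above 0. The difference between the depots was tested in 1 fit over both, and 234 of 17630 genes (1.33%) were called. For 222 of them the log2 fold change was higher in iWAT than in BAT, a count that does not require a rise in iWAT. Among the 81 genes, 62 were called, although their choice by the iWAT contrast favours such a difference, so that the count is a description. Elovl3 was at 558 ± 240.0 against 833 ± 431 CPM in BAT (difference 6.82, adjusted p = 6.05e-05), Cpt1b at 1038 ± 182 against 1137 ± 103 CPM in BAT (difference 3.92, adjusted p = 4.75e-05) and Letmd1 at 799 ± 143 against 907 ± 120.2 CPM in BAT (difference 2.38, adjusted p = 2.99e-05). In BAT the mean of each was higher in dKO, and none of the 3 was called there. Dusp4 was at 78.2 ± 18.6 against 17.5 ± 7.5 CPM in BAT (log2 fold change 2.16, adjusted p = 0.00240), and its difference between depots was not called (difference -0.67, adjusted p = 0.427). For Fgf21 the BAT libraries of UCP1 KO held 353 to 1728 counts and those of dKO 0 to 3, and Egr1 was at 31.5 ± 37.3 against 95.2 ± 73.9 CPM in BAT (difference -0.76, adjusted p = 0.761).

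**Figure D5:**
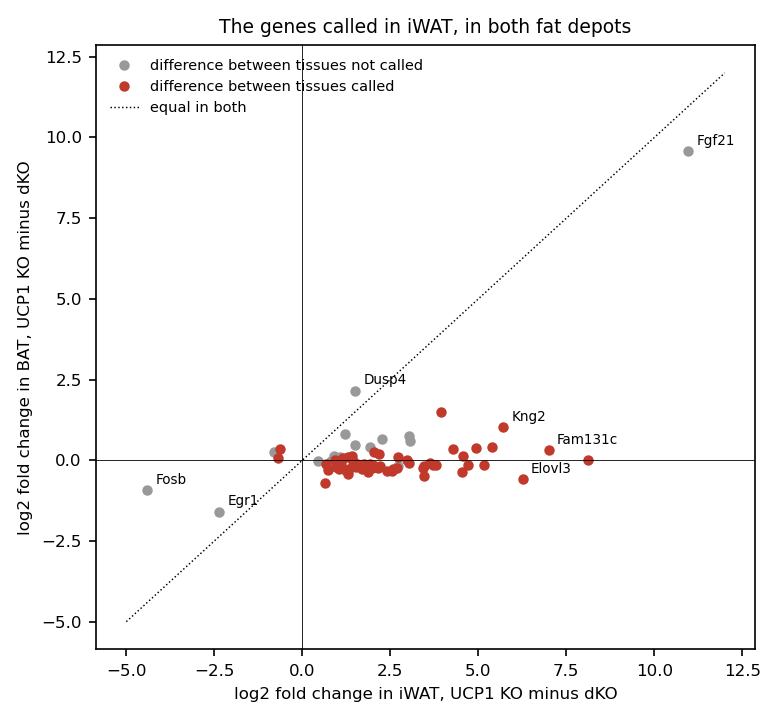
Log2 fold change of UCP1 KO over dKO in BAT (vertical axis) against that in iWAT (horizontal axis) for the genes called in iWAT, 1 point per gene. Red points passed the test of the difference between the depots at an adjusted p under 0.01 and the dotted line marks equal values. Most points lie along 0 in BAT, where the median of the 76 genes higher in iWAT is -0.11. Fgf21 lies near the line of equal values, but its iWAT value is a fit over dKO libraries without counts.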

How the data were processed

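The iWAT and BAT libraries of the 4 genotypes were used, 5 per genotype and tissue; liver and muscle libraries were not used here. Per the labels and the study's methods, poly(A) RNA was sequenced as stranded paired-end reads, aligned to mm10 with STAR and counted on UCSC known genes with HTSeq. The authors deposited these read counts per gene symbol, as raw whole numbers in a file for each library. Whether the counting used strand is not given in the sources used here, so reads of overlapping and antisense genes, and of near-identical copies, cannot be told apart.

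The study's filter was applied to the 20 iWAT libraries (a maximum above 15 counts, a sum above 75, at most 10 libraries at 0), which left 17380 genes. After TMM scaling, edgeR 4.0.16 (in R 4.3.3, beside limma 3.58.1) fitted its quasi-likelihood model to all 20 libraries with a mean for each genotype. UCP1 KO was compared with dKO, p-values received a Benjamini-Hochberg adjustment over every gene tested, and genes with an adjusted p under 0.01 were called. Log2 CPM used a prior count of 2, standard errors were derived from each gene's fold change and test statistic, and errors of means are SD over 5 libraries. Exact two-sided permutation tests used log2 CPM over the 252 splits of 10 libraries. Where no dKO library had more than 3 counts, the fold was taken over a floor of 3 counts per library. BAT was fitted in the same way, and the difference between depots in 1 fit over both.

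Named genes were the 10 largest rises and all falls among called genes without overlap, Fgf21, Ucp1, Dusp4, the genes the study plotted for iWAT, up to 6 called members (or up to 3 others) of each list, and, between depots, the 10 smallest adjusted p. Uncharacterised names were passed over. AK049852, Car11, Prdm16, Ebf2, Lhx8, Adipoq, Fasn, Adrb3, Pdhb, Gdf15, Fos and the other called genes outside the lists that the text gives were named after their values were seen. Some called genes are not reported here. The comparison, the members and the 47 gene lists (682 genes) were chosen with earlier results of these data known. Positions are those of GENCODE vM21, and promoter windows (250 bases before to 50 after a start) are those of RefSeq on GRCm38.p6, with 57 of 76 genes matched.

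Alternatives were DESeq2 1.42.0, RLE factors, no filter, only the 10 libraries, robust dispersion, limma voom with quality weights, marker scores of lymph node (a limit of 4) and skeletal muscle as covariates or limits, thinned counts, an adjusted p under 0.05 and leaving out each library. The epithelial limit of 0, the skeletal muscle limit of 4 and leaving out libraries for Ucp1 were chosen after seeing the data. The code was tested on simulated data.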

Additional observations from a re-analysis of the deposited data

Results flagged for a closer look

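In 4 of the 92 groups of libraries tested for a library that stands apart (chance gives about 1 in 20), the gap between the extreme library and its neighbour, divided by the range of the 5 log2 values, was above 0.71. It was 0.930 for the lymph node score of UCP1 KO, through the high library UCP1 KO 2. It was 0.876 for Ryr2 in UCP1 KO, 0.782 for Ckmt2 in dKO and 0.738 for Ucp1 in dKO, in each case through replicate 1, which is the UCP1 KO library with the highest skeletal muscle score or the dKO library that held both lymph node and skeletal muscle RNA.

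The log2 fold change between UCP1 KO and dKO differed between iWAT and BAT in the joint test for 234 genes, of which the 10 named by the smallest adjusted p among genes called in iWAT each had the larger value in iWAT. The differences were 6.82 for Elovl3, 4.94 for Lgr6, 4.89 for Acot11, 4.49 for Arhgdig, 3.92 for Cpt1b, 3.70 for Phospho1, 3.61 for Mfsd4b1, 2.84 for Pank1, 2.82 for Gpd2 and 2.38 for Letmd1. These genes had been called in iWAT first, which favours a larger value there.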

How the results depend on the processing

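The 81 genes called between UCP1 KO and dKO became 535 with DESeq2 (434 higher, 101 lower), 815 with limma voom (665 and 150), 748 when the lymph node score entered as a covariate (575 and 173), 164 without the libraries above the lymph node limit (134 and 30), 35 without those above the epithelial limit (25 and 10) and 404 at an adjusted p under 0.05 (341 and 63). They became 0 in the fit of the 10 libraries alone and 0 without the libraries above the skeletal muscle limit, where 19 and 17 passed 0.05. RLE factors, no filter, robust dispersion, the skeletal muscle covariate and thinning gave 90, 55, 80, 56 and 77. Leaving out 1 library gave 13 to 372. The count moved by more than 1.5 times without WT 1, 2, 3 or 4 (46, 48, 48, 53), UCP1 KO 2, 3, 4 or 5 (372, 18, 29, 35), dKO 1, 2, 3 or 5 (16, 13, 20, 26) and FGF21 KO 1, 2 or 5 (48, 140, 48). All 81 genes kept their direction in each of these settings, which reuse the libraries that chose them. Of the 81, 11 kept their call without any single library, 19 lost it in 1 to 5 of the fits and 51 in more, with a largest adjusted p of 0.0408. The genes of the lists that were called numbered 34, and 155 with DESeq2, 222 with the lymph node covariate, 72 without libraries above the lymph node limit, 23 with the skeletal muscle covariate, 7 without those above the epithelial limit, 0 in the 10 libraries alone, 0 without those above the skeletal muscle limit, 121 at 0.05 and 6 to 128 without 1 library. The 234 genes that differed between iWAT and BAT became 639 without lymph node libraries, 622 at 0.05 and 88 to 552 without 1 library. The interaction, with 0 genes, gave 62 with DESeq2, 3 with the lymph node covariate and 1 at 0.05. At 0.05 DESeq2 gave 166 and the lymph node covariate 407. The difference of Ucp1 lay between 3.76 and 4.67 without 1 library. Signs turned for Ckmt2 (-0.20 with the skeletal muscle covariate, -0.45 under its limit, -0.10 to 5.38 without 1 library), Slc6a8 (-0.0191 with the lymph node covariate, -0.30 under the skeletal muscle limit, -0.0546 to 0.323 without 1 library, negative without UCP1 KO 1 or dKO 3) and Ryr2 (-0.46 to 0.14 without 1 library, positive without dKO 5). Apart from the settings that remove libraries, the cause was not tested. Counts of 3 or fewer in every dKO library limit Fgf21 and Fam131c to bounds. No paired analysis was possible because the replicate numbers are accession order and the labels link no libraries.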

Other observations

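Several genes outside the fixed lists were called in iWAT. Ttc25, a gene of motile cilia that kept its call without any single library, was at 9.43 ± 4.88 CPM in UCP1 KO against 0.853 ± 0.422 in dKO (log2 fold change 3.46, adjusted p = 0.00115), and at 0.690 ± 0.0667 in WT. Mfsd4b1, a sugar transporter-like gene, was at 10.0 ± 6.0 against 0.912 ± 0.535 CPM (3.45, adjusted p = 0.00236). Hsd11b1, which makes active glucocorticoid in fat, was at 130.0 ± 41.2 CPM in UCP1 KO and 96.8 ± 12.0 in WT against 56.0 ± 17.1 in dKO and 50.1 ± 3.08 in FGF21 KO, so that both groups with the deleted hormone gene lay below both groups without that deletion (UCP1 KO against dKO 1.21, adjusted p = 0.00403). Car11 had the same order of means. Leaving out 1 library at a time, Mfsd4b1 lost its call in 1 fit, Hsd11b1 in 6 and Car11 in 16 of 20. These genes were picked after their values were seen.

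Between dKO and WT the genes called besides AK049852 were Cacna1a, a calcium channel subunit, at a log2 fold change of 1.98, and Mri1, an enzyme of methionine salvage, at -1.02. Both were also called between dKO and FGF21 KO (2.04 and -1.14), and neither differed in the test between UCP1 KO and dKO (-0.25, adjusted p = 0.691, and -0.05, adjusted p = 0.854). Neighbours of the deleted genes were listed only for UCP1 KO against dKO, so a part of linked alleles in these differences was not tested.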
